A study of Mus musculus with 4 samples.

Results

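The chromatin around 9 mouse genes with roles in blood vessel endothelium was examined in maps of accessible DNA from the embryonic limb. The genes were the receptor genes Kdr, Flt1, Tek and Tie1, the adhesion genes Cdh5 and Pecam1, and the transcription factor genes Sox17, Erg and Fli1. They are 9 of 21536 protein-coding genes whose start site could be placed. An accessible region was counted for a gene if it overlapped the gene body or the 50 kb on either side, in mm10 coordinates. This gave 134 of the 99356 regions called at E10.5 and 35 of the 37413 regions called at E11.5. A region no more than 1 kb from the start site is called a promoter region, any other over the gene body intragenic, and the rest flanking. Exon and intron annotation of mm10 was not used here. Tek and Cdh5 lie on the plus strand and the other 7 on the minus strand.

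The assay was ATAC-seq, in which the Tn5 transposase cuts open chromatin. Both groups were wild-type embryos, with forelimbs and hindlimbs together, and no transgene or treatment was named. There were 2 samples titled E10.5 and 2 titled E11.5. The protocol calls the younger stage E10. The labels do not say whether replicates came from separate embryos or from pools. Only 1 list of regions per stage was analysed here, joining both replicates, so no spread between replicates and no test between stages could be had. Limb cells were dissociated and fixed but not sorted, so the cell type that a region came from is unknown. Endothelial cells are 1 of several cell types in such a limb, and fewer endothelial cells cannot be told apart from less open chromatin per cell. Read depth is unknown. The E10.5 list was the longer, and both lists held no region with a signal value under 200, so a gene without a region had none that passed the authors' calling and was not shown to be closed. Signal and −log10 p are the values of the authors' peak caller. Rank is a region's place by signal in its own list, from 1 for the highest. Values of the 2 lists are given side by side and not compared, since the lists differ in length.

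Endothelial cells line blood vessels and enter the limb bud as a plexus early in its growth. KDR and FLT1 are receptors for vascular endothelial growth factors: KDR carries most of the growth signal, and FLT1 binds the ligand tightly and limits it. TEK is the angiopoietin receptor, and TIE1 is its orphan partner. VE-cadherin, from Cdh5, and PECAM-1 hold endothelial cells together. ERG and FLI1 are ETS factors that bind many endothelial enhancers and also act in blood cells, and SOX17 is an SRY-box factor of arterial endothelium.

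A promoter region was found in the E10.5 list for 7 of the 9 genes, all but Tek and Pecam1, and for 66.3% of all protein-coding genes. The E11.5 list had one for 5 of the 9 (Kdr, Flt1, Sox17, Erg and Fli1) and for 59.9% of all genes. Tie1 and Cdh5 were in the first set alone, so 5 of 7 recurred, and 89.9% of such genes did so genome-wide. With the E10.5 list shortened by signal to the 37413 strongest regions, the length of the E11.5 list, 4 of the 9 had a promoter region (Kdr, Flt1, Erg and Fli1), as did 59.6% of all genes, so the count no longer exceeded that at E11.5. Tek had no region at all in the E11.5 list, body and flanks included, and 15.5% of all genes were in the same state. The only Pecam1 region at E11.5 lay at the start of its neighbour Tex2.

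**Figure D1:**
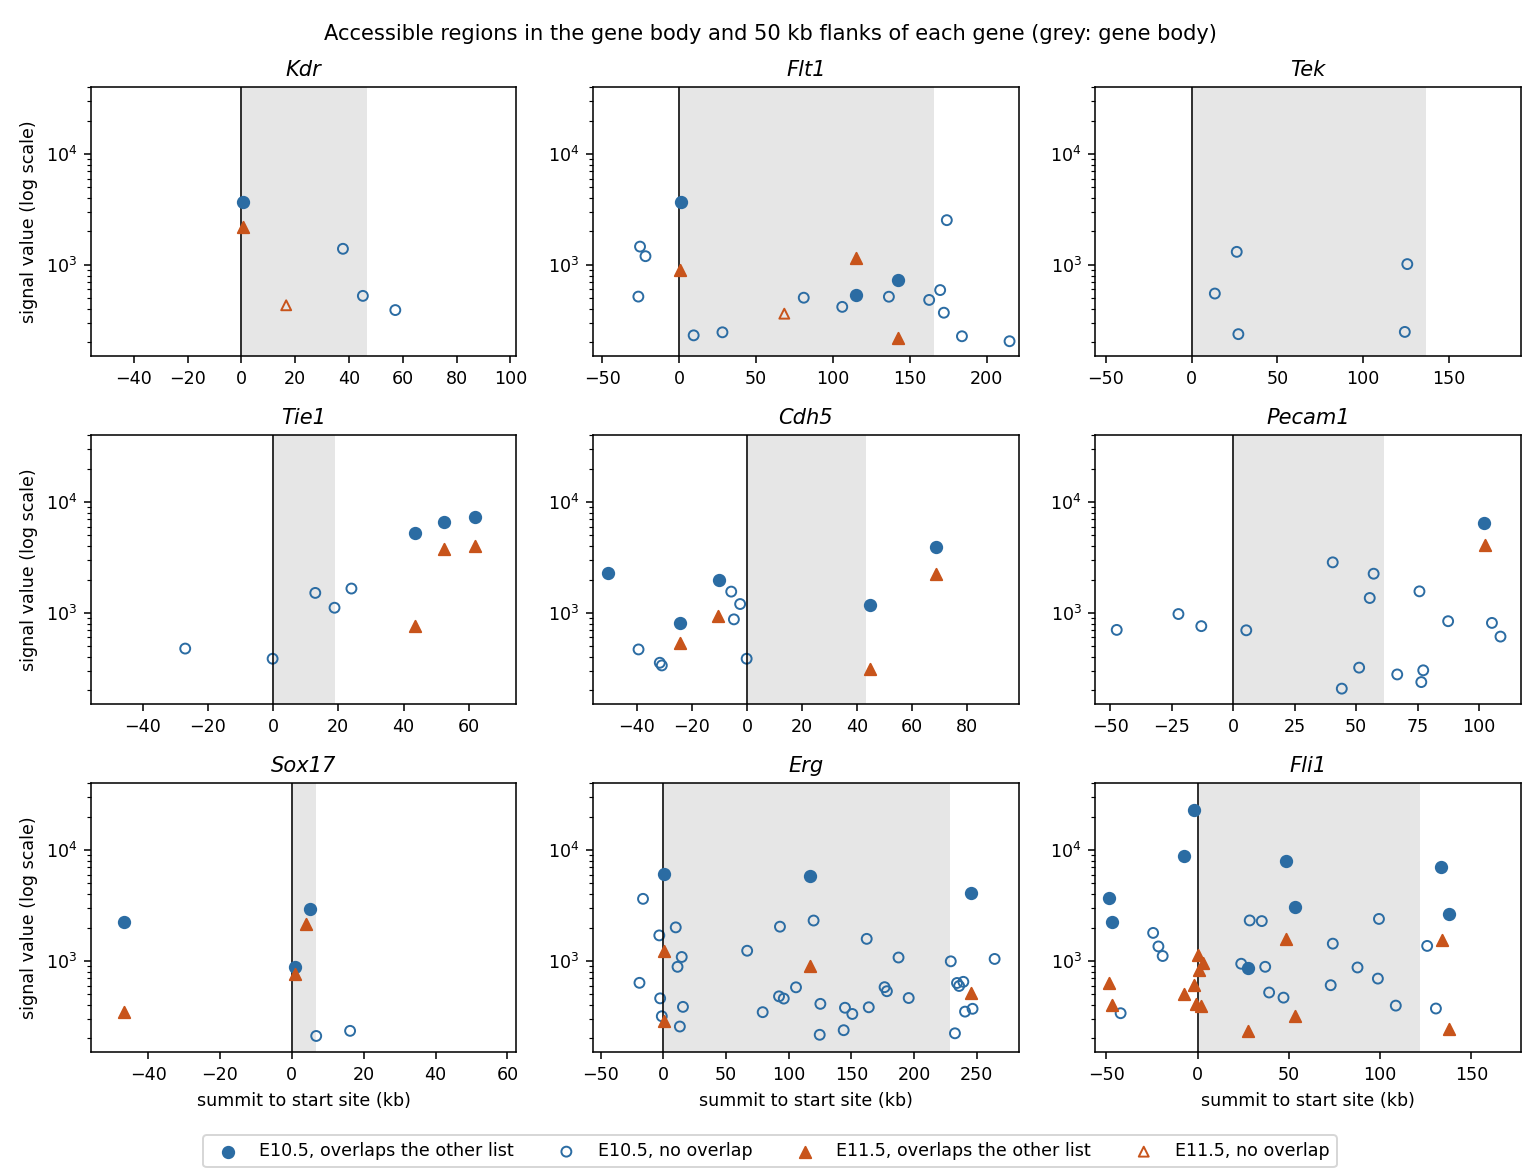
Each panel shows 1 gene, with the distance of a region's summit from the start site in kb on the x axis (positive values run in the direction of transcription) and the authors' signal value on a log axis; circles are E10.5 and triangles E11.5, filled where the region overlaps 1 of the other list. The Tek panel holds 5 open circles and no triangle, and the Fli1 panel holds 14 triangles, the most of the 9 genes.

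The promoter sequences show how unlike these start sites are. RefSeq's promoter table (GRCm38.p6, the same assembly as mm10) held entries for 5 of the 9 genes, Kdr, Flt1, Tek, Tie1 and Erg. Sox17, Cdh5, Pecam1 and Fli1 are named only. The 250 bases before the RefSeq start are printed 5′ to 3′ on the gene's own strand, with every CpG in capitals because the share of promoters in the lists rose with CpG content. Kdr lies at chr5:75978456-75978705 on the minus strand, Flt1 at chr5:147726012-147726261 (minus), Tek at chr4:94739039-94739288 (plus), Tie1 at chr4:118489850-118490099 (minus) and Erg at chr16:95586594-95586843 (minus). For Kdr, Flt1, Tek and, by a few bases, Erg these entries start inside the gene's outer limit, which set the start site used for the counts.
Kdr: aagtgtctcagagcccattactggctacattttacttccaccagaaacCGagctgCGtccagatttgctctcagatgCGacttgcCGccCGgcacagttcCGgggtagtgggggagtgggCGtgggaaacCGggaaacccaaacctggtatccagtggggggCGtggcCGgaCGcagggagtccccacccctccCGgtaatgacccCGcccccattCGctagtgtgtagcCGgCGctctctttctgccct
Flt1: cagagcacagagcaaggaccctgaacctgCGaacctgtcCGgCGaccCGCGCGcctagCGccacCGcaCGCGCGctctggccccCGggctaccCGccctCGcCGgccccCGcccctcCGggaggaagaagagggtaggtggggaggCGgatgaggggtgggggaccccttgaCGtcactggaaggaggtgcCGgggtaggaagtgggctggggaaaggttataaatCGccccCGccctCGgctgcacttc
Tek: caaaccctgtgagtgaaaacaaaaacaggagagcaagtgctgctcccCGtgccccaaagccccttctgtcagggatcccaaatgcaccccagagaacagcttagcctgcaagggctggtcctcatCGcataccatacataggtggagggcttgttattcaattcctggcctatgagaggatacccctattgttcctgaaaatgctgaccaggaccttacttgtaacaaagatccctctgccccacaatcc
Tie1: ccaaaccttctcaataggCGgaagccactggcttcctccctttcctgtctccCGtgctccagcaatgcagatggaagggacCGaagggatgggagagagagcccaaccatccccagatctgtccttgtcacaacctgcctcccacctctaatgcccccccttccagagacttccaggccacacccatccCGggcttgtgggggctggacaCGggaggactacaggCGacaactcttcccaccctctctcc
Erg: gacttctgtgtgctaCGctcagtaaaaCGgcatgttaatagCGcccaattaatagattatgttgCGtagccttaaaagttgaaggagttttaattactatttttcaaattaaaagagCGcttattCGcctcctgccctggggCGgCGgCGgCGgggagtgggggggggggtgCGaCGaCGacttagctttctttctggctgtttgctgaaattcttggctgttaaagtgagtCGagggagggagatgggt

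Regions of both lists lay over the printed bases of Kdr, Flt1 and Erg. A region of the E10.5 list alone lay over those of Tie1, and no region lay over those of Tek. The Kdr bases held 16 CpG at 61.6% GC, an observed/expected CpG ratio of 0.676. The Flt1 bases held 23 CpG at 70.4% GC, with a ratio of 0.744. Erg was poorer in GC, at 48.8%, yet held 14 CpG, with a ratio of 1.03. Tie1 had GC close to that of Kdr, 60.4%, but 6 CpG and a ratio of 0.280. Tek had 2 CpG in 51.2% GC and a ratio of 0.126. Over all 17492 promoters in the table, the share overlapped by an E10.5 region was 10.9% in the lowest quartile of this ratio, where Tek fell, and 52.8% in the second quartile, where Tie1 fell. The same share was 94.8% in the third quartile, with Kdr and Flt1, and 98.7% in the highest, with Erg. At E11.5 the 4 shares were 5.90%, 42.2%, 90.7% and 97.2%. The presence or absence of a region at these 5 promoters thus followed the order seen over all promoters.

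**Figure D2:**
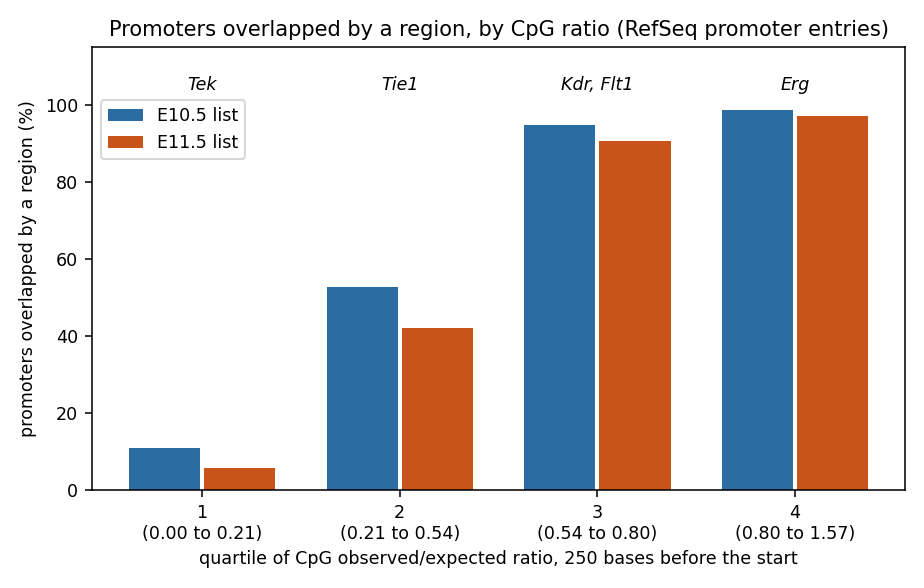
Bars give the percentage of RefSeq promoter entries overlapped by a region of each list, by quartile of the CpG observed/expected ratio in the 250 bases before the start (4373 promoters per quartile). The names stand over the quartile that holds each gene: Tek sits where 10.9% of promoters have an E10.5 region and Erg where 98.7% do.

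Short motifs were searched on both strands of the same bases. The ETS core GGAA, which also lies inside the longer forms CGGAAG and AGGAAG, occurred in 4 of the 5 promoters: 7 times in Tie1, 4 times in Kdr, 4 times in Flt1 and 2 times in Tek. Erg had none. In all, 93.2% of promoters hold this core, so its presence sets none of them apart. The form CGGAAG was in Tie1 (17.2% of all promoters), and AGGAAG was in Flt1 and Tie1 (28.2%). Of the SOX motifs, AACAAT and also AACAAAG were in Tek alone of the 5 (8.62% and 4.37% of all promoters). The GATA motif AGATAA (9.10%) and the forkhead motif GTAAACA (2.57%) were in none of the 5. A TATAAA box was in Flt1 (12.4%).

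Kdr spans chr5:75932827-75979072 and had few regions, 4 (E10.5) and 2 (E11.5). Its promoter region was the strongest in both lists. At E10.5 it covered chr5:75977602-75978950 with signal 3674 (rank 14791, −log10 p 8.24), and at E11.5 chr5:75977633-75978986 with signal 2207 (rank 9559, −log10 p 6.71). The summits lay 0.631 and 0.588 kb inside the gene. Of the other E10.5 regions, 2 were intragenic, the stronger at chr5:75940929-75941702 with signal 1395, and 1 lay past the end of the gene with signal 391. None of these 3 overlapped an E11.5 region. The E11.5 list had an intragenic region of its own at chr5:75962232-75962503, 16.7 kb into the gene, with signal 432.

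Flt1 spans chr5:147561604-147726438 and had 17 regions at E10.5, of which 8 were intragenic and 8 flanking. At E11.5 it had 4, all at the promoter or in the gene body. Its promoter region had signal 3694 at E10.5 (chr5:147725045-147726639, rank 14691) and 890 at E11.5 (chr5:147725044-147726027, rank 16787). The promoter was not the strongest Flt1 region at E11.5. That was an intragenic region at chr5:147611393-147611659, 114.9 kb from the start, with signal 1150, rank 14614 and −log10 p 8.07. The overlapping E10.5 region, chr5:147611395-147611629, had signal 539 and rank 64116, and 6 other Flt1 regions of that list had a higher signal. It was a narrow site in both lists, 235 and 267 bp wide. A further intragenic region at chr5:147583497-147584419 had signal 725 (E10.5) and 220 (E11.5). The strongest flanking region, past the end of the gene at chr5:147551799-147552704 with signal 2529, was in the E10.5 list alone.

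Tek spans chr4:94739086-94874976. At E10.5 it had 5 regions, all of them intragenic, and the E11.5 list had none. The strongest, at chr4:94765213-94765566 and 26.3 kb into the gene, had signal 1309, rank 36875 and −log10 p 7.64. The next, at chr4:94863997-94864943 near the far end of the gene, had signal 1015. The other 3 had signals of 237, 248 and 551. The summits lay 13.6 to 27.3 kb or 124.2 to 125.6 kb into the gene, with none in between and none near the start.

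Tie1 spans chr4:118471191-118489849, a short gene with close neighbours. Its promoter region at E10.5, chr4:118489719-118490155, was weak, with signal 386 and rank 75434. It covered the start site, and the E11.5 list had no region over the promoter or gene body. The E10.5 list also held 2 intragenic regions, with signals 1514 (chr4:118476770-118477612) and 1113. All 3 regions that its window had at E11.5 overlapped E10.5 regions in the flank past the end of the gene. Among them, 1 lay at the promoter of Elovl1, a fatty acid elongase, with signal 7370 (E10.5) and 4051 (E11.5), and 1 at the promoter of Cdc20, a cell division gene, with 6640 and 3757. The shared regions in the Tie1 window were therefore all outside Tie1 itself.

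Cdh5 spans chr8:104101613-104144504. At E10.5 it had 12 regions, and none of them was intragenic. The promoter region, chr8:104101424-104101870, covered the start site with signal 386 and rank 75448, close to the values at Tie1, and the E11.5 list had none there. Of the upstream sites, the region 10.2 kb upstream, chr8:104091067-104091974, had signal 1983, and the E11.5 region there, chr8:104091086-104091965, had 936. A site 24.5 kb upstream had 806 and 530, and a site 44.9 kb downstream of the start, just past the end of the gene, had 1181 and 313. By contrast, the 3 regions at 5.72, 4.75 and 2.48 kb upstream, with signals 1556, 874 and 1202, overlapped nothing at E11.5. The strongest region of the window in both lists, with signals 3962 and 2249, lay at the promoter of the neighbour Bean1.

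Pecam1 spans chr11:106654213-106715281 and had 17 regions at E10.5, 6 of them intragenic and 11 flanking. Its start site had none, and the nearest region was 5.36 kb inside the gene with signal 697. The strongest intragenic regions were chr11:106674051-106675820, 40.5 kb into the gene with signal 2858 and rank 19193, and chr11:106657815-106658791 near the far end with signal 2257. Neither overlapped an E11.5 region. The region at the Tex2 start, with signal 6514 (E10.5) and 4096 (E11.5), was the only 1 of the 17 that did. Pecam1 and Tek were the 2 genes without a promoter region in either list, although both had intragenic regions at E10.5.

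**Figure D3:**
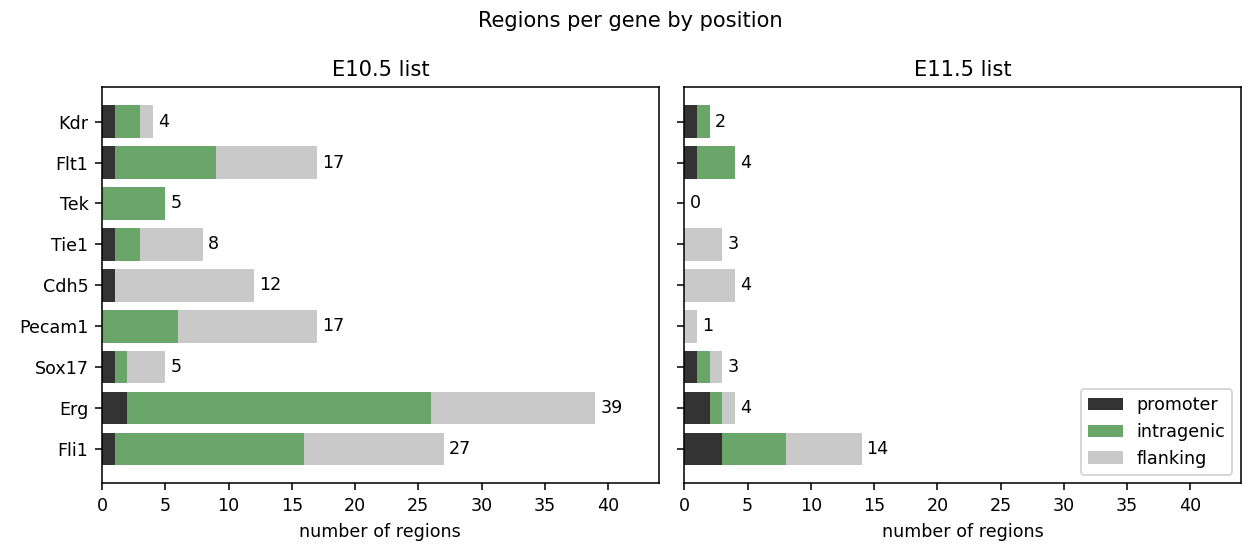
Bars give the number of regions per gene in each list, split into promoter, intragenic and flanking regions, with the total at the bar's end. Erg leads at E10.5 with 39 regions and Fli1 at E11.5 with 14, while Tek has 5 and 0.

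Sox17 spans chr1:4490928-4497426, the shortest of the 9 genes. It had 5 E10.5 and 3 E11.5 regions, and all 3 were at places open in both lists. The promoter region had signal 890 at E10.5 (chr1:4496333-4497677, rank 47827) and 763 at E11.5 (chr1:4496163-4497679, rank 18146). A broad intragenic region near the far end of the gene was stronger in both lists, with signal 2936 at E10.5 (chr1:4491677-4493833) and 2135 at E11.5 (chr1:4491901-4493844). The third, 46.8 kb upstream at chr1:4543826-4544521, had signal 2268 (E10.5) and 343 (E11.5). The E10.5 regions that were not in the E11.5 list were weak, with signals 234 and 210.

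Erg spans chr16:95359169-95586600 and had the most regions at E10.5, 39, of which 24 were intragenic. It had 4 at E11.5. The broad E10.5 promoter region, chr16:95584672-95587167, had signal 6099 and rank 6896, and it overlapped both E11.5 promoter regions, with signals 1218 and 286. An intragenic region 117 kb into the gene, chr16:95469143-95470423, had signal 5893 (E10.5) and 892 (E11.5). A region past the end of the gene, chr16:95340863-95342303, had signal 4081 (E10.5) and 519 (E11.5). Those 3 E10.5 regions were the strongest of the 39 and the only ones that overlapped the E11.5 list. The fourth, 16.1 kb upstream at chr16:95601796-95603179 with signal 3634 and rank 14986, did not. A weak second promoter region at E10.5, chr16:95587359-95587869 with signal 317, did not either. RefSeq lists further Erg starts inside the gene, at positions 95530365 and 95459348, and no region of either list lay over the bases before them.

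Fli1 spans chr9:32422204-32543432 and had 27 E10.5 and 14 E11.5 regions. Each of the 14 overlapped the longer list. Its promoter region at E10.5, chr9:32539311-32547161, was 7851 bp wide with signal 22857 and rank 83, the highest place of any region of the 9 genes. The same stretch held 6 separate E11.5 regions, with signals from 390 to 1140, that covered 55.7% of it. In both lists signal rose with width over all regions (Spearman 0.870 for the E10.5 list, 0.881 for the E11.5 list, a description over regions), so a stretch called as 1 region and a stretch called as 6 cannot be ranked against each other. Among intragenic regions, the strongest was chr9:32494343-32496098, with signal 7958 (E10.5) and 1576 (E11.5), the highest E11.5 signal in the window. The strongest flanking region at E10.5, chr9:32547276-32551441, lay 7.33 kb upstream with signal 8847 and rank 2775. It overlapped an E11.5 region with signal 506. A region past the end of the gene, at chr9:32408490-32410703, had 7067 (E10.5) and 1557 (E11.5). Far upstream, regions at 48.4 and 46.6 kb had 3706 and 2250 at E10.5 and 631 and 397 at E11.5. The next gene on that side, Ets1, another ETS factor, begins 92.8 kb away.

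Counted together, 28 of the 134 E10.5 regions, 20.9% (95% Wilson interval 14.9 to 28.5), overlapped an E11.5 region, where the list as a whole had 32.3%. In the other direction 33 of the 35 did, 94.3% (81.4 to 98.4), where the E11.5 list had 91.8%. The 2 exceptions were the Kdr intragenic region already named and an intragenic Flt1 region at chr5:147657818-147658196 with signal 362. Intervals here cover counting error only, and regions of 1 gene are not independent of each other. With the E10.5 list shortened to the same length by signal, 47.8% of the 46 remaining regions of the 9 genes were shared, where the shortened list had 68.9%. These sets were not matched for their share of promoter regions. By position, 5 of 8 promoter regions at E10.5 were shared, 7 of 63 intragenic regions (11.1%, 5.49 to 21.2) and 16 of 63 flanking regions (25.4%, 16.3 to 37.3). At the sharing rates of all E10.5 regions in the same signal deciles the 3 shares would be 49.2%, 23.6% and 31.4%. Only the intragenic interval lay below its value. Those rates include promoter regions. Regions over 1 kb from a start site were shared less in each decile, as in decile 8 with 47.6% against 54.0%. Erg alone held 24 of the 63 intragenic regions. Of the 16 shared flanking regions, 4 lay at the promoter of another protein-coding gene.

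Regions more than 1 kb from every protein-coding start are called distal here. Among the distal E10.5 regions, 19 of 122 around the 9 genes were shared, 15.6% (10.2 to 23.0), where the whole list had 23.5%. At the sharing rate of all distal regions of the same signal decile, 28.1 of the 122 would be shared, or 23.0%, which is the upper end of that interval. Erg held much of the gap: 2 of its 37 distal regions were shared, 5.41%, where its deciles gave 19.6%. Without Erg, 17 of 85 were shared, 20% (12.9 to 29.7), which takes in the list's 23.5%. Fli1 had 8 of 26 shared, 30.8%, where its deciles gave 36.3%. Cdh5 had 4 of 10, where its deciles gave 23.7%, and Sox17 2 of 4, where they gave 31.5%. Without Fli1, 11 of 96 were shared, or 11.46% (6.52 to 19.36). That interval lay below the 19.46% of their deciles and the list's 23.5%. None of the 16 distal Pecam1 regions was shared (interval 0 to 19.4), where its deciles gave 18.5%. None of the 5 Tek regions was shared (0 to 43.4), where its deciles gave 12.8%.

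Sharing followed signal closely. Of the 134 E10.5 regions, 17 of the 19 in the top 2 signal deciles of the list were shared, 10 of the 57 in deciles 5 to 8, and 1 of the 58 in the lowest 4 deciles. In the highest decile the members had 10 of 10 shared and the list 96.7%. Decile 7 had the widest gap between members and list of all deciles. There the members had 1 of 17, none of them a promoter region. The list had 33.8%, and its distal regions 30.6%. In decile 5 the members were above the list, with 2 of 10 against 13.5%. The median signal of shared regions was 3684 and that of unshared regions 586. Signal as a whole sat near the middle of each list: 66 of the 134 regions were above the list's median signal at E10.5 and 18 of the 35 at E11.5.

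**Figure D4:**
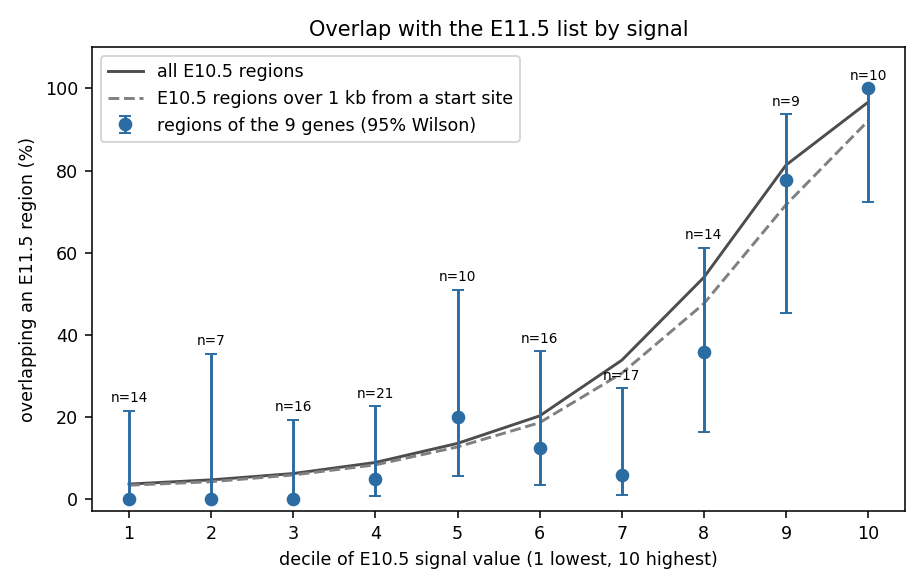
The x axis is the decile of signal in the E10.5 list and the y axis the percentage of regions overlapping an E11.5 region; points are the regions of the 9 genes with 95% Wilson intervals and their number, and lines are all E10.5 regions and those over 1 kb from a start site. Sharing climbs with signal in both, from 0 of 14 regions in decile 1 to 10 of 10 in decile 10, and the point for decile 7, 1 of 17, lies below the lines.

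Allowing for window length, the 9 genes had a median of 6.74 E10.5 regions per 100 kb of window, against 5.25 over all protein-coding genes, and 1.51 E11.5 regions per 100 kb, against 2.42. Both values were within the quartiles of all genes (2.16 to 8.84 and 0.938 to 4.38). Fli1 had the densest windows, 12.2 and 6.33 per 100 kb, which stood at the 88.5th and 87.8th percentile of all genes. Erg had 11.9 and 1.22 (87.8th and 29.9th percentile), and Pecam1 10.6 and 0.621 (82.5th and 18.0th). These 2 genes thus stood high in the E10.5 list and low in the E11.5 list. The strongest region was the same place in both lists for Kdr, Sox17 and Erg. It was also the same for Tie1, Cdh5 and Pecam1, but there it lay at the promoter of a neighbour (Elovl1, Bean1 and Tex2). For Flt1 it differed, and for Fli1 the split of its promoter stretch leaves the question without an answer.

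A wider list of 46 other genes with roles in endothelium, ligand genes included, was counted in the same way. Whether these genes are active in endothelial cells alone was not tested. A promoter region was listed for 38 of them (82.6%) at the younger stage and for 28 (60.9%) at the older, and the 28 were all among the 38. Over all genes the shares were 66.3% and 59.9%. With the E10.5 list shortened to equal length the 38 became 29 by signal and 26 by −log10 p, against 28 at E11.5. Ligand genes such as Vegfa had 7 of 7 and 6 of 7 in the respective lists, and Notch and ephrin genes 5 of 5 and 4 of 5. Transcription factor genes had 14 of 17 and 12 of 17, and receptors and coreceptors 7 of 8 and 4 of 8. Surface and junction genes had the fewest, 5 of 9 and 2 of 9. Of the 9 genes, all 3 transcription factor genes had a promoter region in both lists and neither adhesion gene had one at E11.5.

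The 10 wider-list genes with an open promoter in the E10.5 list alone were Vegfd, Eng, Acvrl1, Aplnr, Notch4, Esam, Robo4, Plvap, Gata2 and Nr2f2. Their E10.5 signals ran from 230.4 for Eng, a TGF-beta coreceptor, to 4559 for Nr2f2, a venous transcription factor, with Acvrl1 at 2315 and Notch4 at 1620. Eng, Plvap, Robo4, Esam and Vegfd were below the list's median signal of 838. Of the 38 genes with an E10.5 promoter region 28 had one at E11.5, where 89.9% of such genes did genome-wide, a share not matched for signal. The 8 genes without a promoter region in either list were Ptprb, Emcn, Egfl7, Icam2, Vwf, Etv2, Lmo2 and Mef2c. Among distal E10.5 regions of the wider list, 138 of 464 were shared, 29.7% (25.8 to 34.1), close to the 28.7% that their signal deciles gave.

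Markers of other limb cell types gave these values for the same tissue. Promoter regions in the younger and older list were found for 12 and 10 of 12 limb mesenchyme genes, 9 and 5 of 10 surface ectoderm genes, 5 and 2 of 5 muscle precursor genes, 5 and 4 of 5 mural cell genes, and 4 and 5 of 10 blood genes. The 9 endothelial genes had 7 and 5, and all genes 66.3% and 59.9%. At equal list length the 9 genes had 4 and 5, so no direction is read from these counts. Distal sharing at E10.5, 23.5% in the whole list, was 23.1% (45 of 195) around mesenchyme genes, where their signal deciles gave 33.1%. It was 14.9% (13 of 87) for ectoderm, with 21.1% from the deciles, and 11.3% (7 of 62) for muscle precursors, with 19.9%. Mural cell genes had 20.8% (10 of 48), with 25.8% from the deciles, and blood genes 36.2% (17 of 47), with 17.6%. Blood genes went the other way at E11.5. There 16 of 29 distal regions were shared, 55.2% (37.5 to 71.6), where the deciles gave 87.4%. The other 4 lists and the 9 genes were above their decile values at E11.5. Only the mesenchyme interval (92.0 to 99.7) left out its decile value, 88.5%. The 9 genes had 21 of 23 shared (73.2 to 97.6), where the deciles gave 88.1%. At E10.5 sharing was below the decile value around the 9 endothelial genes and around 4 of these 5 lists, and above it for blood. Intervals took in the decile value for ectoderm (8.95 to 23.9), muscle precursors (5.58 to 21.5) and mural cells (11.7 to 34.3). They did not for mesenchyme (17.7 to 29.5) and blood (24.0 to 50.5). The share of endothelial cells in each stage's limbs was not measured, and its part in these values was not tested.

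At the 50 kb limit, the outermost region counted at E10.5 lay 49.8 kb from Flt1 with signal 204.5, and the nearest one left out lay 50.7 kb from Erg with signal 1941. At E11.5 these were 48.4 kb from Fli1 with signal 631 and 50.2 kb from Cdh5 with signal 558. The last of these is the region that overlaps the E10.5 region at the far edge of the Cdh5 window, chr8:104050812-104051883.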

How the data were processed

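Per the submitters' processing notes, the authors used cutadapt, Bowtie2, SAMtools, deepTools and Genrich with the mm10 build; versions and settings are not given in the sources used here. The deposited lists, 1 per stage with both replicates joined, give per region a signal value, a −log10 p-value and a summit offset (another whole-number value, in bases), all computed by the authors; how replicates were joined is not stated. The deposited q-value column is unset and was not used. Rows on chromosomes 1 to 19, X and Y were kept as regions and ranked by signal. No columns of other series were found (0).

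Start sites are the outer ends of genes in RefSeq's GRCm38.p6 table, with strand from RefSeq's promoter table (17492 genes) or GENCODE M1 by symbol (4044); 21536 of 21887 protein-coding genes had both. The mm10 genome sequence was not used here. An overlap of 1 bp counted as shared. Read depth is unknown, so no interval covers it; Wilson intervals are at 95%. The 9 genes were fixed by name, and every region in their windows was counted. The strongest region of each window was named, with a selection of the other promoter, intragenic, flanking and shared regions. For the wider endothelial list, genes were counted by role, and those in 1 list or in neither were named. The genes and lists were chosen with earlier results of these data known. Overlap counting was tested on simulated data. Python 3.11.15, numpy 2.4.6, pandas 2.3.3 and scipy 1.17.1 were used.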

Additional observations from a re-analysis of the deposited data

How the results depend on the processing

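No paired analysis was possible because the replicates of a stage stand in a single joint list, so leaving one out could not be done either. Over 13 other settings and 8 counts or shares, 33 values stayed within 1.5 times or within their interval and 21 moved. The values have no sign, but the order of the promoter counts, 7 at E10.5 over 5 at E11.5, turned to 4 against 5 at equal list length. The 134 E10.5 regions became 70 with the gene body alone, 71 at −log10 p of 5 or more, 46 with as many regions as the E11.5 list taken by signal and 38 by −log10 p. The 35 E11.5 regions became 18 with the gene body alone, 57 with 100 kb flanks and 15 at −log10 p of 5 or more. Without Erg and Fli1, the genes with the most regions at E10.5, they were 68 and 17, a setting chosen after seeing the data. The shared share at E10.5 (20.9%) was 47.8% with lists of equal length taken by signal, 55.3% by −log10 p and 10.4% with a reciprocal overlap of 50%. The shared share at E11.5 (94.3%) was 100% at −log10 p of 5 or more, 77.1% and 74.3% with lists of equal length by signal and by −log10 p, 40% with the reciprocal overlap and 57.1% with summits within 100 bp. With lists of equal length, the E10.5 promoter count of 7 was 4 by signal and 4 by −log10 p; at −log10 p of 5 or more it was 4, and the E11.5 count of 5 was 3. Counts for the wider endothelial list stayed within 1.5 times throughout, at 26 to 41 for E10.5 and 22 to 32 for E11.5. Start sites from RefSeq's promoter table were another setting chosen after seeing the data.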
